A study of Mus musculus with 15 samples.

Results

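Soybean meal (SBM) and spray-dried plasma protein (SDPP), a plant and an animal blood protein source, were compared directly in monolayers of mouse duodenal organoid cells. The comparison took the 3 arrays with the agent SBM and the 3 arrays with the agent SDPP, 6 of the 15 arrays of the series, and the difference used no array of the medium control. The other 9 arrays were 3 each of casein (CAS), yellow mealworm (YMW) and DMEM as the medium control (MC). All cells came from the duodenum of female mice of the strain C57BL/6J at an age of 9 weeks and were grown to confluence in multiwell plates. Each protein source was given undigested for 6 h, and 3 wells made 1 sample. The labels give the dose as 4% w/v, but the study's methods set beside it a far lower mass of protein per volume, so the dose is uncertain. The organoids grew in a medium with EGF, noggin, WNT3A and R-spondin, so the monolayers model the epithelium without the lamina propria or the microbes of the gut. The methods name 3 donor mice, but the labels do not tie a replicate number to a mouse, so a p-value measures the spread between these samples.

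The small intestinal epithelium meets dietary components first, and several of its transcription factors are receptors for them. The aryl hydrocarbon receptor (AhR) binds planar plant and microbial compounds, pairs with ARNT, and switches on CYP1 enzymes that oxidise those compounds. Crypt stem cells divide and their progeny mature into enterocytes, which carry the digestive enzymes, transporters and chylomicron proteins of the brush border cell.

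Gene expression was measured with Affymetrix mouse gene 1.1 ST arrays, and all values below are log2 intensities of the probe set kept for a gene. The check of the epithelial label gave high levels of Vil1, the brush border protein villin, from 10.60 to 11.14 on the 6 arrays, and of the stem cell gene Olfm4, from 11.23 to 11.89. Of the markers of other cells, 6 of 15 for immune cells, 8 of 13 for fibroblasts and muscle and 3 of 9 for endothelium and blood were above the background level of 3.91, the 95th percentile of 1157 receptor genes of smell. Among those above it were Csf1r, a macrophage gene, with means of 4.42 with SBM and 4.47 with SDPP, and Lyz2, with 6.34 and 6.37. Lyz2 is a macrophage gene that was also listed as a Paneth cell marker. The collagen genes Col1a1, with 5.10 and 5.21, and Col6a1, with 5.24 and 5.32, were also above background. Among those below it were the leukocyte gene Ptprc, with 3.65 and 3.58, the endothelial gene Pecam1, with 3.73 and 3.90, and the fibroblast gene Dcn, with 2.93 and 2.89.

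Only a few genes separated SBM from SDPP. Of 18820 genes, 21 (0.112%) passed an unadjusted p under 0.05 with a fold change of at least 1.5 in limma, the study's threshold, 4 of them (0.0213%) higher and 17 (0.0903%) lower with SBM. The split was 5 higher and 12 lower after each array was centred on its median. The cytochrome P450 gene Cyp1a1 had the lowest p of all genes, and the lower genes included the matricellular factor Ccn2, the glucocorticoid receptor co-chaperone Fkbp5 and the solute carriers Slc37a2, Slc30a10, Slc6a19 and Slc6a8. At a Benjamini-Hochberg adjusted p under 0.05 limma called 0 genes, the lowest adjusted p being 0.0710 for Cyp1a1 and the next 0.985, while 827 genes (4.39%) had an unadjusted p under 0.05, 270 higher (1.43%) and 557 lower (2.96%). The other 5 pairs of sources had 58 calls for CAS against SBM (0.308%), 53 for CAS against YMW (0.282%), 49 for CAS against SDPP (0.26%), 31 for SBM against YMW (0.165%) and 24 for SDPP against YMW (0.128%). These pairs share arrays, so the counts are given side by side only.

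The number of calls rested on a pair of arrays. Without SDPP replicate 3 the threshold was passed by 202 genes, 7 higher and 195 lower, and without SBM replicate 3 by 113, 9 higher and 104 lower. Leaving out any other SBM or SDPP array gave 15 to 20, but these were in part other genes. Of the 21 genes, 12 were still called without SBM replicate 1 and 11 without SBM replicate 2. Without SDPP replicate 1 it was 8 and without SDPP replicate 2 it was 10. With the MC arrays added to the fit the count was 7 (0.0372%), namely Cyp1a1, Zbed5, Olfr792, Fkbp5, Gm13884, Hs3st3b1 and Rdh9, so the calls of the other 14 genes were lost there. The difference of a typical gene had a 95% interval of 0.233 to either side on the log2 scale. All 21 genes kept their direction under every alternative in which they were tested.

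**Figure D1:**
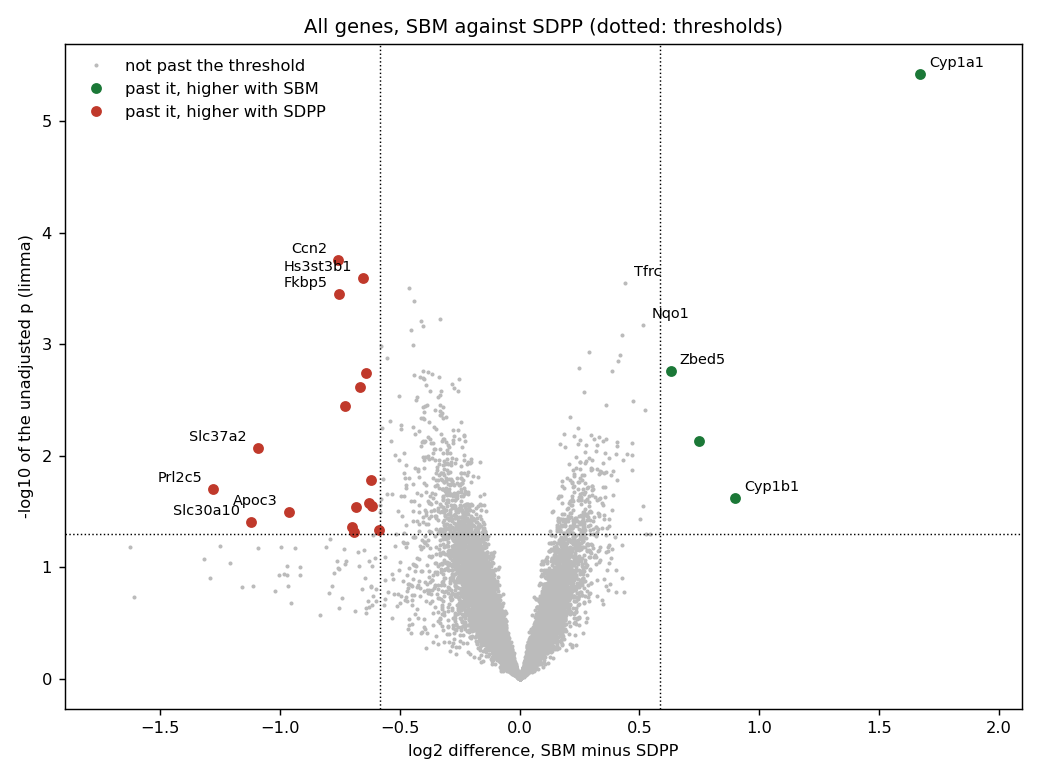
Each point is 1 of the 18820 genes, with the log2 difference SBM minus SDPP on the x axis and the negative log10 of the unadjusted limma p on the y axis. The 4 green points passed the threshold with higher levels under SBM and the 17 red points with higher levels under SDPP, and Cyp1a1 stands at 1.67 with the lowest p.

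Of 6 measured AhR targets, Cyp1a1 and Cyp1b1 passed the threshold, both higher with SBM, against 0.0213% of all genes. They are described first by their promoters, since CYP1 genes are known to be driven by AhR sites upstream of their start. The 250 bases before the start of 3 AhR target genes are shown because each holds the core of such a site, GCGTG or its complement CACGC, in capitals. They are RefSeq sequence of the build GRCm38.p6, read 5′ to 3′ on the strand of the gene.
Cyp1a1, chr9:57697363-57697612, + strand: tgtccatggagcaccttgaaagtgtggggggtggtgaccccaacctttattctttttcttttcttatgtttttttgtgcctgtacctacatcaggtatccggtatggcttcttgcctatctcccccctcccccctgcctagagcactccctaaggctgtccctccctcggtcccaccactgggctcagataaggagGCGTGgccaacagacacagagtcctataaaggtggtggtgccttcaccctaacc
Cyp1b1, chr17:79715062-79715311, - strand: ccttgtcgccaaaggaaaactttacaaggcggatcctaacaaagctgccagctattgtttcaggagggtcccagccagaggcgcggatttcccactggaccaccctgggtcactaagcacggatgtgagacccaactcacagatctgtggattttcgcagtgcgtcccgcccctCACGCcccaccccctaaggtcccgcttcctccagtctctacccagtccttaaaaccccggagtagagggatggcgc
Ahrr, chr13:74292332-74292581, - strand: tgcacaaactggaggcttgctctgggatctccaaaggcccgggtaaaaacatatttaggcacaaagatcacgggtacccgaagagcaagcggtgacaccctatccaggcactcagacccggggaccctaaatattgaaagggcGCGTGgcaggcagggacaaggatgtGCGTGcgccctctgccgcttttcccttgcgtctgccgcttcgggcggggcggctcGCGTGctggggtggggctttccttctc
The window of Cyp1a1 holds 1 core 54 bases before the start, that of Cyp1b1 1 core on the opposite strand 76 bases before it, and that of Ahrr 3 cores at 107, 82 and 27 bases. The start used for Cyp1a1 lies 9685 bases inside the span annotated for the gene. The same windows of Cyp1a2 and Nqo1 hold no such letters, and Aldh3a1 had no entry. Of all 32851 promoter windows 28.2% hold the core. Of the 10345 genes above background that have an entry, 47.8% hold it in at least 1 window. A match is therefore a description of the letters and not a site.

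Cyp1a1, the CYP1 enzyme most used as a readout of the AhR, read 7.02, 6.60 and 7.21 on the 3 SBM arrays and 5.74, 5.38 and 4.70 on the 3 SDPP arrays. Every SBM array lay above every SDPP array, and across the series the order was SBM, SDPP, YMW, MC and CAS. The YMW arrays read 4.57 to 4.95 and overlapped with the SDPP arrays, the MC arrays 4.38 to 4.41 and the CAS arrays 3.69 to 4.07, at about the background level. Cyp1a1 was 1.67 ± 0.22 (SE) higher with SBM on the log2 scale, a 3.19-fold difference with a 95% interval of 1.19 to 2.15 in log2 and an unadjusted limma p of 3.77e-06. It passed the threshold in all 16 alternatives, with a difference of 1.39 to 1.90 when 1 array was left out. Its limma adjusted p of 0.0710 became 0.0188 without SDPP replicate 1, 0.0210 after median centring, 0.0395 after a second quantile normalization and 0.0330 with all 15 arrays in the fit. It was 0.355 without SBM replicate 1, 0.174 without SBM replicate 3, 0.376 without SDPP replicate 2, 0.327 with the replicate block and 0.979 in the fit to the 6 arrays alone. Against the mean of the CAS and YMW arrays Cyp1a1 was 2.61 higher with SBM and 0.94 higher with SDPP on the log2 scale.

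Cyp1b1, a related enzyme that oxidises polycyclic hydrocarbons and oestradiol, read 6.98, 6.36 and 5.82 with SBM against 5.39, 5.09 and 5.97 with SDPP. SDPP replicate 3 exceeded SBM replicate 3, so the groups overlapped. The difference of 0.90 ± 0.35 (SE), 1.87-fold, passed the threshold at an unadjusted limma p of 0.024 (adjusted p = 0.985), and the call was lost in 5 of 16 alternatives, without SBM replicate 1, SDPP replicate 1 or SDPP replicate 2, with all 15 arrays and with a robust prior. A further probe set of Cyp1b1, at background with means of 3.67 and 3.51, differed by 0.16. YMW had a mean of 5.31, within the range of the SDPP arrays, and CAS 4.57.

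Nqo1, a quinone reductase induced through both the AhR and NRF2, read 8.79, 8.70 and 8.51 with SBM and 7.98, 8.33 and 8.15 with SDPP. The groups did not overlap, which 7.93% of all genes share (2.89% with SBM higher and 5.05% with SBM lower). The difference of 0.51 ± 0.12 (SE) was 1.43-fold and so short of the fold threshold. Ahrr, the repressor of the AhR and itself its target, was 0.26 higher with a 95% interval of -0.09 to 0.61, and SBM replicate 1, at 4.45, was its highest array. The SDPP arrays of Ahrr, at 3.71, 3.81 and 3.76, and SBM replicate 2, at 3.70, lay below background. Differences of 0.13 for Cyp1a2 (interval -0.13 to 0.39), which was not above background, and of 0.09 for Aldh3a1 (interval -0.16 to 0.34) complete the 6 AhR targets measured of 9 listed. In all, 2 of the 6 passed as higher, against 0.0213% of all genes, and the median was 0.39 against -0.02 over all genes. All 6 differences were above 0, against 8282 of 18820 over all genes, although that of Aldh3a1 turned to -0.01 without SBM replicate 1.

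Of the 5 measured genes of the receptor and its partners 0 passed the threshold. Ahr had means of 7.86 with SBM and 7.80 with SDPP (95% interval of the difference -0.14 to 0.26) and Arnt of 8.29 and 8.30 (interval -0.18 to 0.15). NRF2 targets, the antioxidant genes, gave 0 of 15 past the threshold and 3 with an unadjusted limma p under 0.05, all higher with SBM (Hmox1, Gsr and the malic enzyme Me1). Of all genes 1.43% were higher at that p. Nqo1 was counted with the AhR targets and is not in this list of NRF2 targets. Hmox1, haem oxygenase, read 8.62, 8.64 and 8.49 with SBM against 8.19, 8.32 and 8.34 (difference 0.30 ± 0.11 SE), and Gsr, glutathione reductase, differed by 0.18 ± 0.06 (SE). For both genes the groups did not overlap, but Hmox1 was higher still with YMW, at a mean of 8.84. The glutathione transferase Gstm1 was 0.29 ± 0.07 (SE) higher with SBM, also without overlap, and its relative Gsta3 0.35 ± 0.12 (SE) higher with overlap. These were 2 of the 3 phase II conjugation enzymes with an unadjusted limma p under 0.05, against 4.39% of all genes. The other, Ugt8a, was 0.33 ± 0.12 (SE) lower and below background. Of 17 such enzymes 0 passed the threshold and 10 differences were below 0, against 10538 of 18820 over all genes. The lowest difference was that of the sulfotransferase Sult1b1 at -1.01 (95% interval -2.30 to 0.29). The list median of -0.02 turned to 0.10 without SDPP replicate 1.

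**Figure D2:**
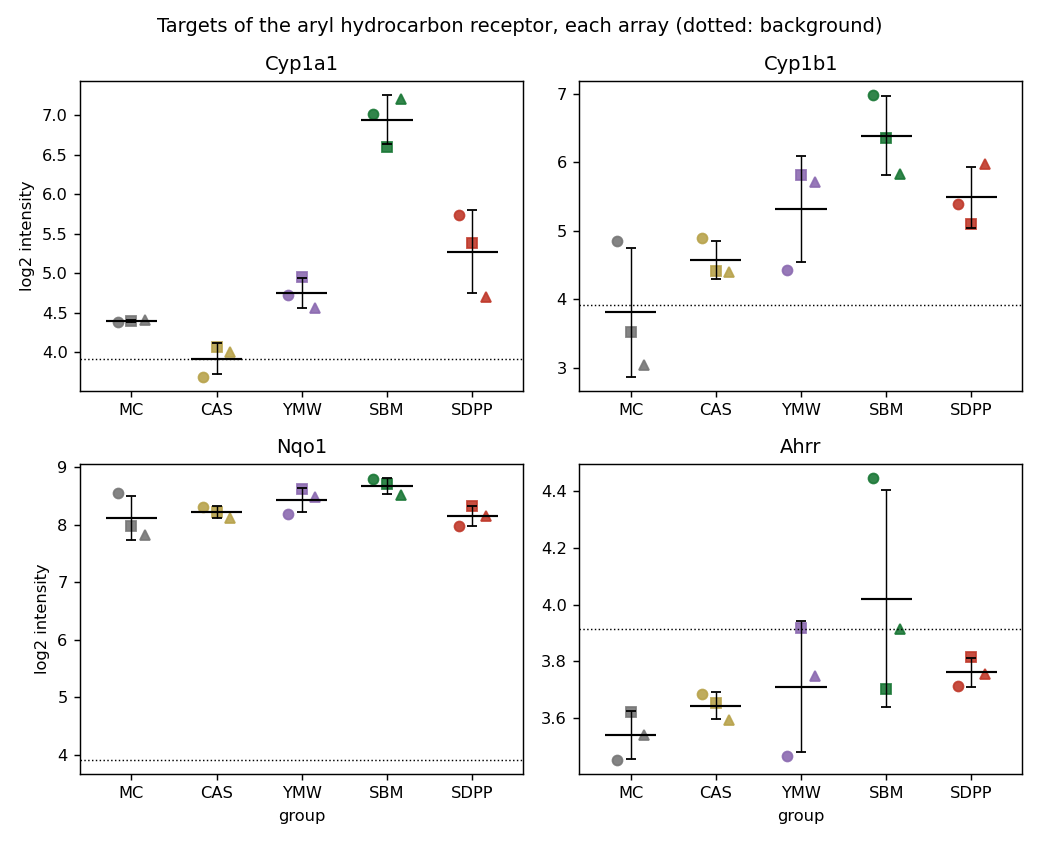
Log2 intensity of 4 AhR targets on each of the 15 arrays by group, with circles, squares and triangles for replicates 1, 2 and 3, the black line and bar for the mean and SD of 3 arrays, and the dotted line for the background of 3.91. The 3 SBM arrays are the highest of all 15 for Cyp1a1, while SBM and SDPP overlap for Cyp1b1 and Ahrr.

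Zbed5, a gene derived from a transposase whose role is unclear, was the other gene higher with SBM without overlap, with 4.95, 5.02 and 4.81 against 4.23, 4.19 and 4.47. Its difference was 0.63 ± 0.16 (SE), and the call was lost without SBM replicate 2 and without SDPP replicate 2. The fourth gene, the olfactory receptor Olfr792, lay below background in both groups.

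A set of genes lay lowest with SBM among the 4 sources. For 8 of the 21 called genes the mean of the 6 CAS and YMW arrays was nearer to SDPP, and for 13, all of them lower with SBM, it was nearer to SBM. This is a description of the called genes, with no test. The 8 were the 4 higher genes and Ccn2, Hs3st3b1, Ly6d and Pdlim2.

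Ccn2, or connective tissue growth factor, is a secreted matrix protein induced by TGF-beta and by the mechanically regulated coactivator YAP. It read 8.19, 7.76 and 7.74 with SBM and 8.62, 8.53 and 8.82 with SDPP, and every SBM array lay below every array of the other sources, with CAS at a mean of 8.73 and YMW at 8.62. Relative to the mean of the CAS and YMW arrays Ccn2 stood at -0.78 with SBM and at -0.02 with SDPP. Ccn2 fell by 0.76 ± 0.15 (SE) from SDPP to SBM, 1.69-fold (95% interval -1.08 to -0.44, limma adjusted p = 0.985). The call held in 15 of 16 alternatives and was lost with the MC arrays in the fit, which themselves read 9.28, 6.74 and 6.42.

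Hs3st3b1 encodes a sulfotransferase that finishes heparan sulfate chains. Its SBM values of 4.38, 4.23 and 4.27 lay below all 12 other arrays of the series, and its SDPP values were 4.98, 4.77 and 5.09. The fall of 0.66 ± 0.13 (SE), 1.58-fold, had a limma adjusted p of 0.985, and the call was lost without SDPP replicate 3.

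Other genes near Ccn2 in function missed the fold threshold but were ordered the same way. Ccn1, its closest relative, read 8.86, 8.72 and 8.73 with SBM and 9.22, 9.03 and 9.37 with SDPP, a difference of -0.43 ± 0.12 (SE). Ankrd1, a nuclear ankyrin protein and a common YAP readout, differed by -0.34 ± 0.13 (SE). For both genes the SBM arrays lay below every array of the other sources. The MC arrays read 9.66, 7.38 and 7.32 for Ccn1 and 8.95, 4.65 and 3.62 for Ankrd1. MC replicates 2 and 3 thus lay below every SBM array for both genes. Of 18 genes listed for YAP and the injured epithelium, 2 passed the threshold, both lower (Ccn2 and the alarmin Il33), against 0.0903% of all genes, and 4 were lower at an unadjusted limma p under 0.05, against 2.96%. The median of the list was -0.04, and with all 15 arrays in the fit 0 of its members passed.

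BMP and TGF-beta targets, taken as 1 list, had a median of -0.17 over 17 genes (-0.27 without SDPP replicate 3). In this list 1 gene passed the threshold (Ccn2) and 12 differences were below 0. Over all genes 0.0903% passed as lower and 10538 of 18820 differences were below 0. Pmepa1 and Skil, feedback inhibitors of TGF-beta signalling, differed by -0.37 ± 0.10 and -0.24 ± 0.10 (SE) without overlap, and the signal transducer Smad3 by -0.18 ± 0.07 (SE). For Pmepa1 and Skil the YMW means of 9.61 and 7.67 lay between those of SBM and SDPP, and CAS was far higher at 10.45 and 8.49. Of 26 BMP and TGF-beta ligands, receptors and SMADs 0 passed. The BMP target Id3 differed by -0.46 with a 95% interval of -1.10 to 0.17.

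Immediate early genes, which respond to growth factors and stretch within minutes to hours, gave 0 of 28 past the threshold and 6 lower at an unadjusted limma p under 0.05, against 2.96% of all genes, with a median of -0.12 (-0.07 without SBM replicate 2 and -0.19 without SBM replicate 3). Nr4a1, an orphan nuclear receptor, read 7.10, 6.71 and 6.88 with SBM against 7.29, 7.18 and 7.51 with SDPP and 7.67 on average with YMW. Egr1, a zinc finger factor, was 0.39 ± 0.13 (SE) lower with SBM without overlap. Rhob, a small GTPase of endosomes and stress fibres, read 6.87, 6.71 and 6.96 against 7.75, 7.32 and 7.10, and Fos differed by a like -0.54 ± 0.17 (SE) but overlapped at replicate 3. They were 1.46-fold and 1.45-fold lower with SBM, short of the fold threshold. The mean of Rhob was 8.25 with CAS and 7.15 with YMW. Gprc5b, an orphan receptor of the retinoic acid inducible family, read 5.45, 5.12 and 4.88 against 5.49, 5.63 and 6.03, a difference of -0.57 ± 0.21 (SE). Tagln2 was the only one of 21 actin and contractile genes with an unadjusted limma p under 0.05, at -0.17 ± 0.06 (SE).

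**Figure D3:**
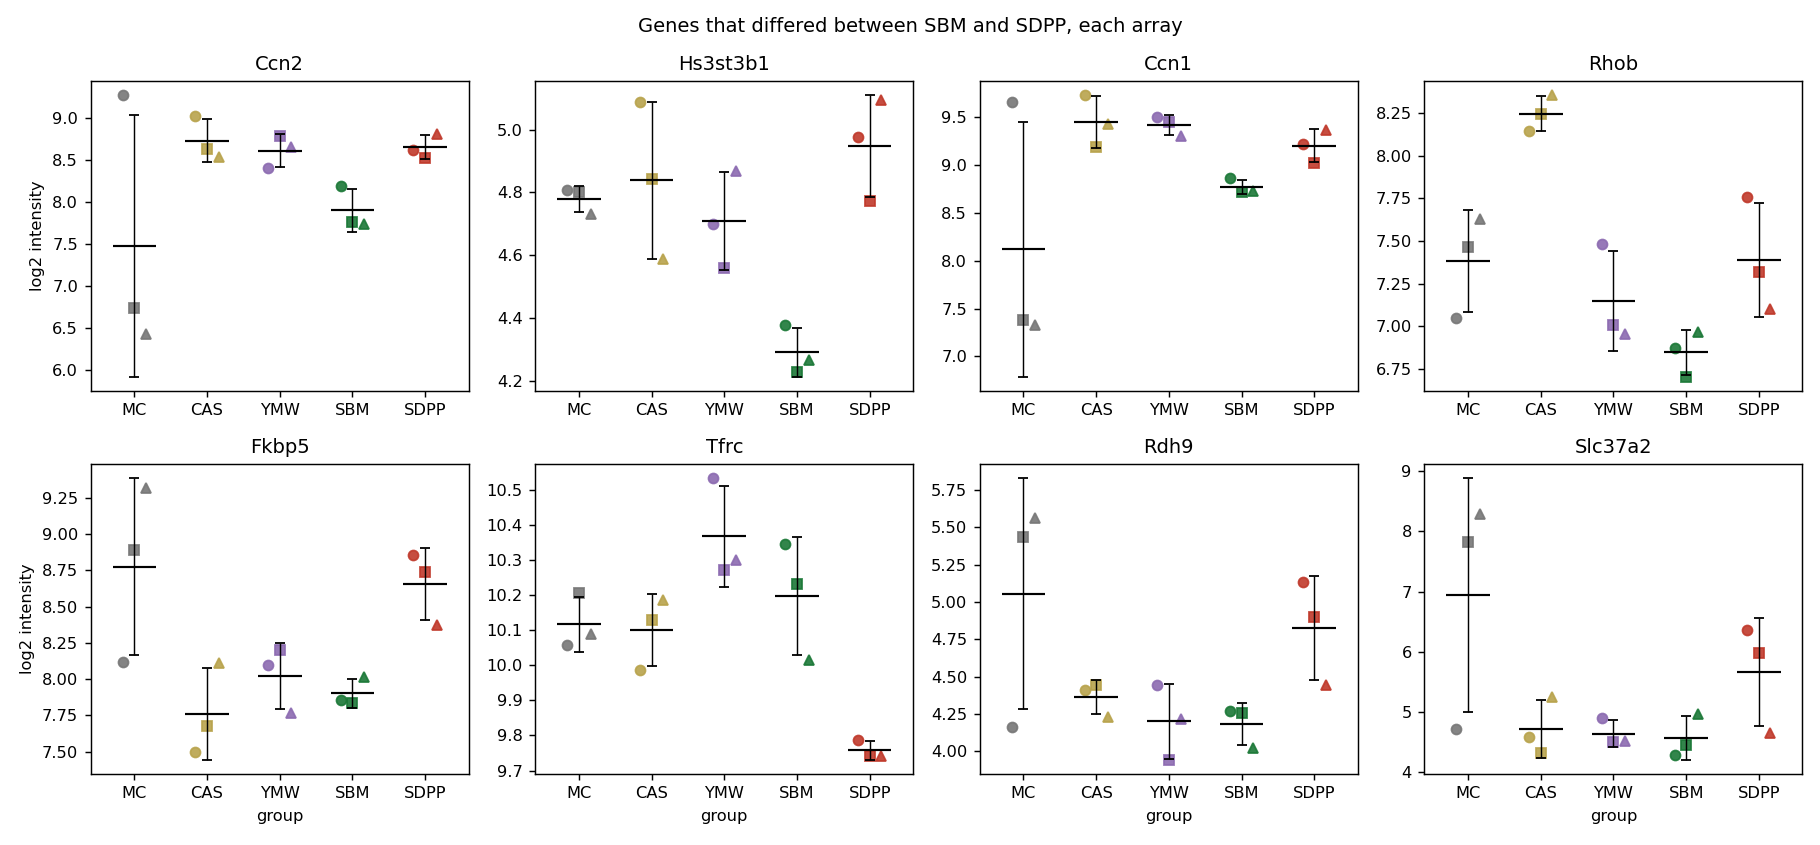
Log2 intensity of 8 genes on each of the 15 arrays by group, with circles, squares and triangles for replicates 1, 2 and 3 and the black line and bar for the mean and SD of 3 arrays. Ccn2, Hs3st3b1 and Ccn1 are lowest with SBM among the 4 sources, Fkbp5 is highest and Tfrc lowest with SDPP, and Rdh9 and Slc37a2 spread over the SDPP arrays with replicate 3 nearest to SBM.

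Fkbp5 and Gm13884 differed on the side of SDPP, and Nox1 by about as much on either side. Fkbp5, a co-chaperone that dampens the glucocorticoid receptor and is induced by it, read 8.85, 8.74 and 8.38 with SDPP and 7.85, 7.84 and 8.01 with SBM. All SDPP arrays lay above all arrays of the other sources, CAS averaging 7.76 and YMW 8.02, while the MC arrays read 8.12, 8.89 and 9.32. Relative to the mean of the CAS and YMW arrays Fkbp5 stood at 0.01 with SBM and at 0.76 with SDPP. Fkbp5 fell by 0.76 ± 0.16 (SE) from SDPP to SBM, 1.69-fold (95% interval -1.10 to -0.41, limma adjusted p = 0.985), and passed the threshold in all 16 alternatives. The predicted gene Gm13884, on the same side, read 4.28, 4.32 and 3.90 with SBM against 4.88, 5.11 and 4.72, a fall of 0.73 ± 0.21 (SE) that also passed in all 16. Nox1, the NADPH oxidase of intestinal epithelium, read 8.94, 8.76 and 8.10 against 8.99, 9.10 and 9.59, a fall of 0.62 ± 0.23 (SE) with SDPP replicate 3 the highest array. Relative to the mean of the CAS and YMW arrays Nox1 stood at -0.29 with SBM and at 0.33 with SDPP, and YMW averaged 9.09. Its call was lost in 5 of 16 alternatives, without SBM replicate 3 or SDPP replicate 3, after median centring, with array weights and with all 15 arrays.

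Glucocorticoid responsive genes beyond Fkbp5 gave no further call among 17 measured, and 5 of the 17, Fkbp5 included, were lower with SBM at an unadjusted limma p under 0.05, against 2.96% of all genes. Per1, a clock gene with glucocorticoid response elements, read 7.09, 7.18 and 7.17 with SBM against 7.53, 7.44 and 7.40, a difference of -0.31 ± 0.10 (SE). Relative to the mean of the CAS and YMW arrays Per1 stood at -0.18 with SBM and at 0.13 with SDPP. Sgk1, a kinase that regulates sodium channels, differed by -0.48 ± 0.19 (SE) but its SDPP replicate 3, at 4.35, fell among the SBM arrays. Tsc22d3, a standard glucocorticoid readout, differed by -0.22 with a 95% interval of -0.61 to 0.17, and the median of the list was -0.10 (-0.06 without SBM replicate 1).

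Tfrc, the transferrin receptor that takes up iron and is lowered when cells hold enough of it, read 9.79, 9.74 and 9.74 with SDPP and 10.35, 10.23 and 10.02 with SBM. The SDPP arrays were the lowest 3 of all 15. The difference of 0.44 ± 0.09 (SE) was 1.36-fold and short of the threshold. Bach1, a repressor that haem removes from its targets, was 0.33 ± 0.10 (SE) lower with SBM without overlap. Relative to the mean of the CAS and YMW arrays Bach1 stood at -0.20 with SBM and at 0.13 with SDPP. Of 20 iron and haem genes 0 passed the threshold. Tnfsf13b, the B cell survival factor BAFF, was 0.33 ± 0.09 (SE) lower with SBM by its brighter probe set, at 5.98, 6.07 and 5.93 against 6.30, 6.37 and 6.30, and by -0.01 on its dimmer one. Tnfsf13b was highest with CAS, at a mean of 7.29, and lowest with YMW, at 5.83. Dhrs3, a reductase that returns retinal to retinol and is induced by retinoic acid, was 0.30 ± 0.10 (SE) higher with SBM, with YMW at a mean of 7.01.

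All 17 lower genes read higher on SDPP replicates 1 and 2 than on any SBM array, but for 10 of them SDPP replicate 3 lay at or under the highest SBM array. For 11 of the 17 MC replicates 2 and 3 lay above every SDPP array. The 17 were selected for lying higher with SDPP, and these counts were not taken over all genes, so they only describe the 17. In a bulk sample fewer cells of a type and less RNA per cell cannot be told apart.

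Slc37a2, a sugar phosphate transporter, read 4.29, 4.45 and 4.97 with SBM and 6.37, 5.97 and 4.65 with SDPP, and fell by 1.09 ± 0.36 (SE), 2.13-fold. SDPP replicate 3 lay within the SBM range, and the call was lost without SDPP replicate 1 and with all 15 arrays. Slc30a10, a manganese exporter of the apical membrane, spread over a similar range with 6.82, 7.62 and 8.61 against 9.36, 9.32 and 7.74, a fall of 1.12 ± 0.49 (SE). Its call was lost in 8 of 16 alternatives, among them the omission of replicate 1 or 2 of either group, and its difference ranged from -1.66 to -0.69. Prl2c5, of the prolactin family and open to signal from its close copies, read 4.67, 3.92 and 4.93 against 6.67, 6.03 and 4.66, a fall of 1.28 ± 0.48 (SE). This call was lost in 5 of 16 alternatives, among them the omission of SBM replicate 2, SDPP replicate 1 or SDPP replicate 2, and the difference ranged from -1.84 to -0.84. In each of these 3 genes the highest SBM array exceeded the lowest SDPP array.

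Slc6a19, the main carrier of neutral amino acids at the brush border, read 3.37, 3.24 and 3.42 with SBM, below background, and 4.47, 4.05 and 3.52 with SDPP, so only 2 SDPP arrays of the 6 were above background behind its fall of 0.67 ± 0.18 (SE), and the call was lost without SDPP replicate 1 and with all 15 arrays. Slc6a8, the creatine transporter, fell by 0.68 ± 0.28 (SE), a call lost in 7 of 16 alternatives, among them the omission of replicate 1 or 2 of either group, with a range of -1.07 to -0.39. They were the 2 called of 16 amino acid and peptide transporters, against 0.0903% of all genes called lower. The peptide carrier Slc15a1 spread most, from 3.58 to 5.14 with SBM and 4.04 to 6.51 with SDPP, and its difference of -1.25 had a 95% interval of -2.59 to 0.09. Rdh9, a retinol and steroid dehydrogenase, was without overlap at 4.27, 4.26 and 4.02 against 5.14, 4.90 and 4.44, and fell by 0.64 ± 0.17 (SE), a call lost without SBM replicate 3 or SDPP replicate 1.

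Among the called genes 5 more passed in only 4 to 8 of 16 alternatives. Ugt2a3, a glucuronosyltransferase of the enterocyte, fell by 0.69 ± 0.32 (SE), the surface proteins Psca and Ly6d by 0.70 ± 0.31 and 0.63 ± 0.25 (SE), the actin-binding Pdlim2 by 0.61 ± 0.25 (SE), and Il33 by 0.59 ± 0.27 (SE). For all 5 the SBM and SDPP arrays overlapped. The adjusted limma p of each was 0.985.

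Enterocyte markers had a median difference of -0.58, with 0 of 22 measured members past the threshold and 20 above background. The median was -0.20 without SDPP replicate 1, -0.32 without SBM replicate 1 and -0.99 without SDPP replicate 3. At an unadjusted limma p under 0.05 the list held 1 gene, the antimicrobial lectin Reg3a, 0.22 ± 0.09 (SE) higher with SBM. Their mean on each array was 7.14, 7.51 and 8.13 with SBM and 8.83, 8.43 and 7.28 with SDPP. SDPP replicates 1 and 2 exceeded SBM replicates 1 and 2 in 21 of the 22 genes, and SDPP replicate 3 lay below SBM replicate 3 in all 22. These orders were not counted over all genes. The other groups also spread, with CAS from 7.22 to 8.32, YMW from 7.30 to 8.21 and MC from 7.35 to 9.44. Without SDPP replicate 3 the list had 17 members past the threshold, all lower, against 195 of 18820 genes called lower. Without SBM replicate 3 it had 7, also lower, against 104 of 18820 genes, and without any other SBM or SDPP array 0.

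Single members showed the range behind this. Krt20, a keratin of the mature villus, read 8.11, 8.87 and 10.33 with SBM and 11.28, 10.85 and 8.52 with SDPP, and its difference of -1.11 had a 95% interval of -2.68 to 0.45. Apoa1, the main protein of high density lipoprotein, read 7.32, 8.13 and 9.49 against 10.70, 10.30 and 7.90. The fructose and glucose carrier Slc2a2 differed by -1.16 (interval -2.80 to 0.48), sucrase-isomaltase, Sis, by -0.63 (interval -1.70 to 0.44), and intestinal alkaline phosphatase, Alpi, by -0.37 (interval -0.98 to 0.23). In all 5 SDPP replicate 3 was below SBM replicate 3. Over all genes, 243 read at least 1.5-fold higher on both SDPP replicates 1 and 2 than on replicate 3, and 26 at least 1.5-fold lower.

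Lipid handling followed the same arrays. Triglyceride and chylomicron genes had a median of -0.36 over 26 members. Of the 26 differences 22 were below 0, against 10538 of 18820 over all genes, and 1 passed the threshold as lower, against 0.0903%. The median was -0.11 without SDPP replicate 1 and -0.60 without SDPP replicate 3. The called gene was Apoc3, an inhibitor of lipoprotein lipase carried on chylomicrons, with 5.32, 5.63 and 6.79 against 7.54, 7.13 and 5.97, a fall of 0.96 ± 0.40 (SE). Its call was lost in 7 of 16 alternatives, among them the omission of replicate 1 or 2 of either group, and its difference ranged from -1.42 to -0.64. Mogat2, which rebuilds diacylglycerol from absorbed monoacylglycerol, differed by -0.55 ± 0.21 (SE) and Mttp, which loads lipid on apolipoprotein B, by -0.40 (95% interval -1.18 to 0.39). Lpin1, a phosphatidate phosphatase, went the other way at 0.29 ± 0.12 (SE). The list had 13 lower calls without SDPP replicate 3, against 195 of 18820 genes. Without SBM replicate 3 it had 8, against 104 of 18820 genes. Phosphatidylcholine synthesis gave 0 of 15 past the threshold. Its members Lpcat4, an acyltransferase of lysophospholipids, at 8.87, 8.74 and 9.04 against 9.33, 9.05 and 9.26, and Chka, choline kinase, differed by -0.33 ± 0.09 and -0.38 ± 0.16 (SE), the first without overlap. Cholesterol synthesis and uptake gave 0 of 31 past the threshold and a median of 0.02 that turned to -0.05 without SBM replicate 3 and to -0.01 without SDPP replicate 3. Targets of the xenobiotic receptors CAR and PXR gave 0 of 11, Cyp3a11 among them at -0.76 (interval -2.06 to 0.55), and their median of -0.28 was -0.05 without SBM replicate 1 and -0.60 without SDPP replicate 3.

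**Figure D4:**
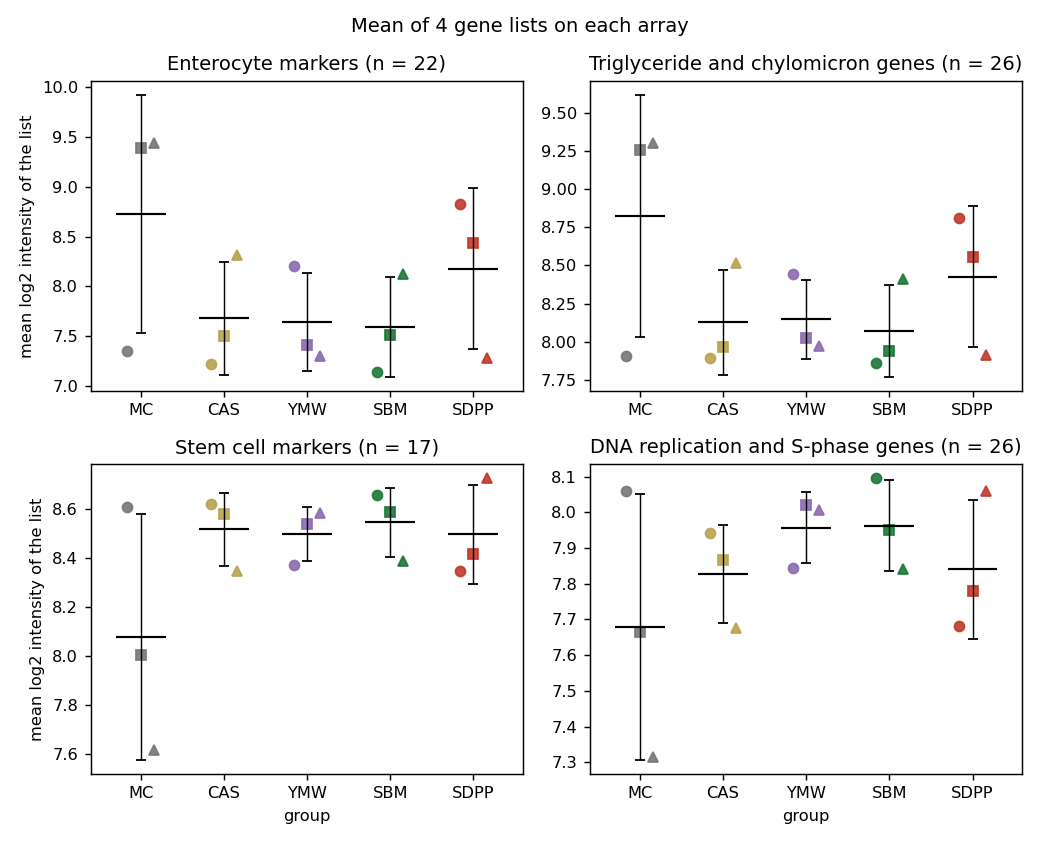
Mean log2 intensity of 4 gene lists on each of the 15 arrays by group, with circles, squares and triangles for replicates 1, 2 and 3 and the black line and bar for the mean and SD of 3 arrays. SDPP replicate 3 is the lowest SDPP array for the enterocyte list, at 7.28, and the highest for the stem cell and S-phase lists, and SBM replicate 3 is the reverse within SBM.

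Proliferation genes gave no call. S-phase genes had 25 of 26 differences above 0, against 8282 of 18820 over all genes, and 0 past the threshold. Their median was 0.14 (0.03 without SBM replicate 1 or SDPP replicate 1 and 0.26 without SDPP replicate 3). Their array means were 8.10, 7.95 and 7.84 with SBM and 7.68, 7.78 and 8.06 with SDPP. The replication licensing gene Mcm2 read 9.11, 9.15 and 8.97 against 8.71, 8.67 and 9.23. Stem cell markers had 0 of 17 past the threshold and a median of 0.08, which ranged from -0.00086 without SBM replicate 1 to 0.20 without SDPP replicate 3. Lgr5, the receptor for R-spondin that marks crypt base stem cells, read 9.35, 9.44 and 9.38 against 8.99, 9.20 and 9.63, a difference of 0.12 with a 95% interval of -0.14 to 0.37 that turned to -0.02 without SDPP replicate 1. Mitosis genes gave 0 of 23 past the threshold, with a median of 0.06 that turned to -0.0076 without SBM replicate 1 and to -0.02 without SDPP replicate 1.

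Markers of the secretory lineages and of M cells gave no call. Paneth, goblet, tuft and M cell markers gave 0 calls among 10, 12, 11 and 9 measured, with medians of -0.03, -0.06, -0.07 and -0.03. The Paneth cell lysozyme Lyz1 had means of 11.45 and 11.40, and Muc2, the main secreted mucin, of 9.09 and 9.17. Enteroendocrine markers gave 0 of 21 past the threshold and a median of -0.11 (-0.26 without SBM replicate 3 or SDPP replicate 3). The lowest p there belonged to the tachykinin precursor Tac1 and to Cck, the hormone cholecystokinin, at -0.34 ± 0.14 and -0.58 ± 0.24 (SE), both with overlap. Tight junction genes gave 0 of 19, with differences from -0.09 to 0.10.

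Inflammation and interferon genes gave 1 call. Of 32 chemokine, cytokine and NF-kB genes only Il33 passed, against 0.0903% of all genes called lower, and of 31 interferon-stimulated genes 0 did. The mean of the interferon list was 5.99, 6.57 and 6.89 with SBM, a wider spread than the 6.51, 6.64 and 6.49 with SDPP. Markers of immune cells gave 0 of 15 past the threshold and a summed linear intensity of 326 to 415 with SBM and 347 to 385 with SDPP. Those of fibroblasts and muscle gave 0 of 13 and sums of 280 to 282 against 289 to 308, and those of endothelium and blood 0 of 9 and sums of 126 to 131 against 128 to 138. The enterocyte sums were 10541 to 20729 with SBM and 12189 to 32338 with SDPP, and their part in the 17 lower calls was not tested.

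**Figure D5:**
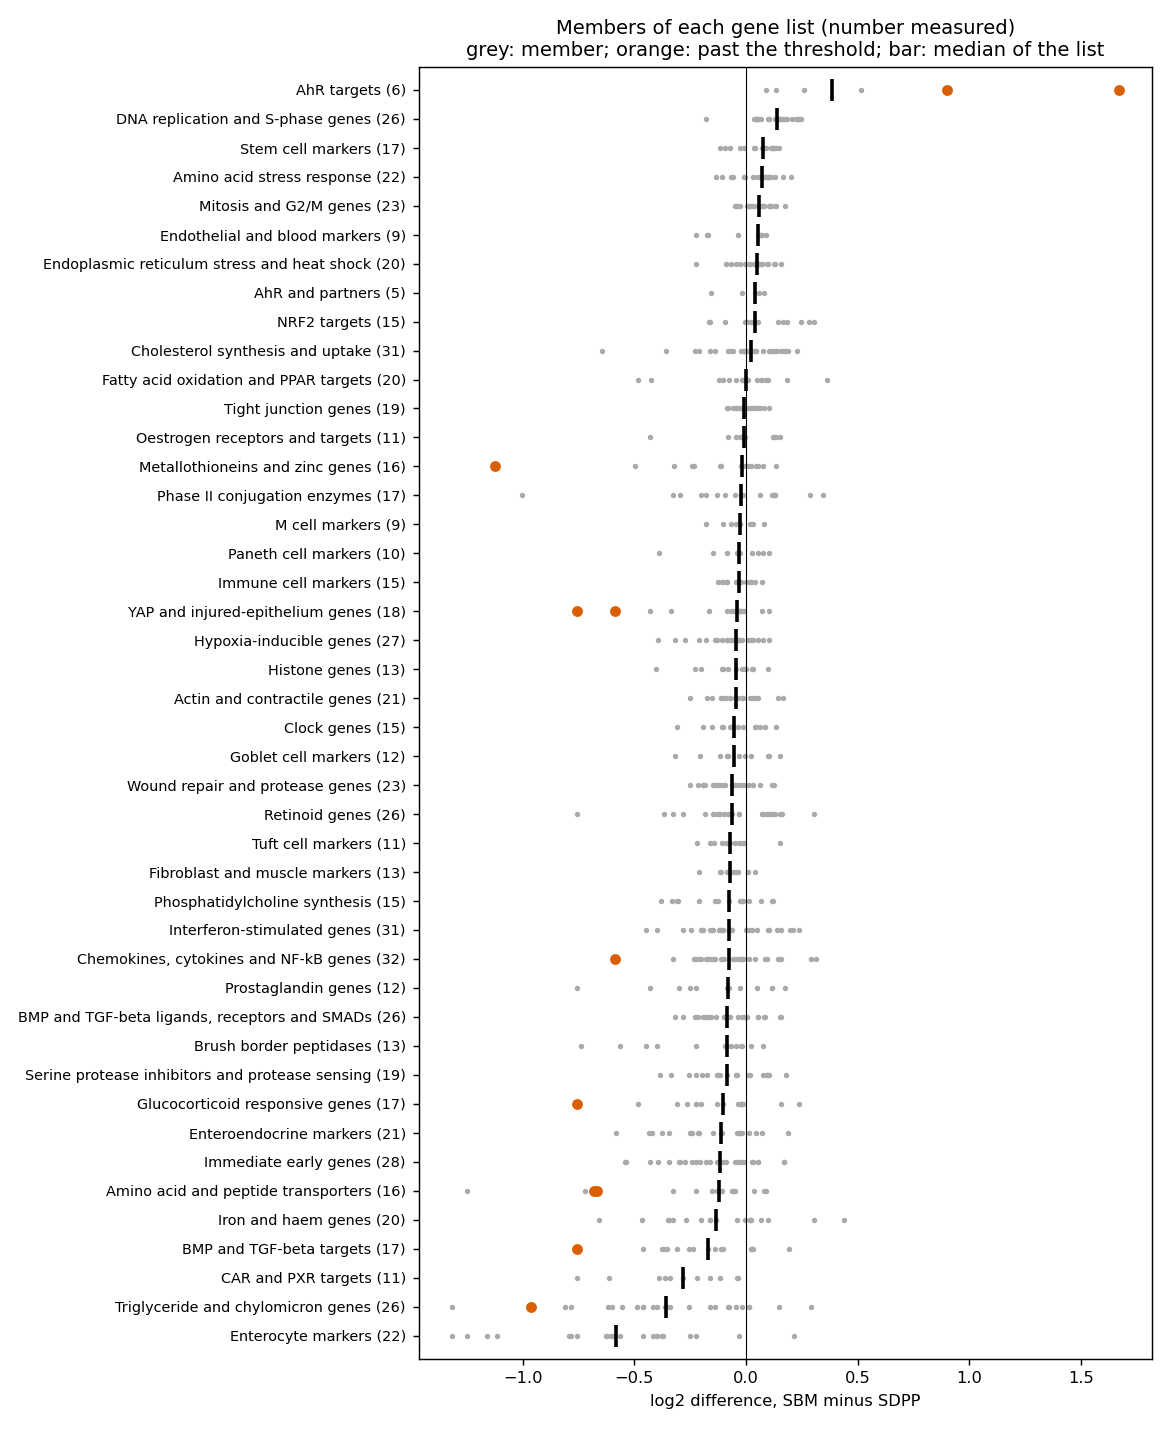
Log2 difference SBM minus SDPP of every measured member of the 44 gene lists, with the number measured in parentheses, orange points for members past the threshold and a black bar for the median of the list. AhR targets have the highest median, 0.39, and enterocyte markers the lowest, -0.58.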

How the data were processed

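Duodenal organoid monolayers exposed for 6 h were profiled on 15 Affymetrix mouse gene 1.1 ST arrays, 3 per group. The authors normalized the arrays by RMA and deposited linear intensity values for 35556 probe sets. The version of RMA is not given in the sources used here. RMA equalizes the distributions of the arrays, so a shift shared by all genes cannot be seen, and differences of dim genes are understated.

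The log2 of the deposited intensity was taken. Of the probe sets, 21218 had 1 gene symbol, 1881 had several and 12457 were unnamed in the platform annotation used here. Where a gene had several probe sets, that of highest average signal stood for it, which left 18820 genes, 13012 of them above background in SBM or SDPP. Precision is set by the number of arrays, 3 a group. Median array intensity was 21.7 to 24.1.

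SBM was compared with SDPP by limma 3.58.1 (R 4.3.3) in a fit of 4 group means to the 12 arrays of the 4 sources, and the prior variance followed mean intensity. This trend stands for the study's intensity-based moderated statistic. The MC arrays were left out because they spread more (root mean variance 0.273 against 0.157 to 0.176) and are not in the difference. The study's threshold was an unadjusted p under 0.05 with at least 1.5-fold. The script was tested on simulated data. Adjusted p-values cover all 18820 genes.

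Genes were named by a rule, namely called genes above background without overlap (up to 12 each way), the members of each list past the threshold or else the 2 with the lowest p, and Cyp1a1, Cyp1b1, Tnfsf13b, Fkbp5, Id3, Rhob and Gprc5b. The remaining genes in the text were chosen after their values were seen. The 44 lists hold 893 members, 796 of them measured. The comparison, the members and the lists were chosen with earlier results of these data known, so counts over a list describe it and support nothing. Promoters come from RefSeq. Alternatives were other arrays in the fit, other priors, a replicate block, array weights, other normalizations, thresholds and filters, all probe sets, and each array left out.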

Additional observations from a re-analysis of the deposited data

How the results depend on the processing

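The number of genes past the threshold, 21, was 7 with all 15 arrays, 13 with the 6 arrays alone, 11 with a robust prior, 75 with array weights, 4 at 2-fold, 827 with no fold threshold and 270 over all probe sets, and 15 to 202 when 1 array was left out. The counts with 1 prior variance, genes above background, the 99th percentile, a second quantile normalization and median centring were 18, 19, 17, 18 and 17. Genes at an adjusted p under 0.05 in limma, 0, became 1 with all 15 arrays, with a second quantile normalization and with median centring, and were 0 to 1 when 1 array was left out. That gene was Cyp1a1 each time. The number of called genes whose CAS and YMW mean was nearer to SBM, 13, was 3 with all 15 arrays, 7 with the 6 arrays alone, 6 with the robust prior, 62 with array weights and 6 to 178 when 1 array was left out.

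With the replicate number as a block, the count was 18 and the lowest adjusted p 0.327. The labels do not say what a replicate number shares. Same-numbered arrays of different sources deviated with correlations of -0.53 to 0.40 over 18 pairs (1 of 12 arrays correlated best with its own number). These correlations cannot show whether same-numbered samples came from the same mouse, so the pairing is unknown.

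Of 125 genes, 7 changed sign in some alternative. Anxa5 was 0.0118 and Csf1r 0.0119 after median centring, and Csf1r 0.0118 after a second quantile normalization. When 1 array was left out, Irf7 ranged from -0.85 to 0.0093, Kif11 from -0.0076 to 0.25, Anxa5 from -0.10 to 0.014, Csf1r from -0.11 to 0.022, Aldh3a1 from -0.012 to 0.19, Lgr5 from -0.024 to 0.29 and Olfm4 from -0.048 to 0.28. None of these passed the threshold. Median centring raised the median of all genes by 0.06. Of 528 medians of lists under alternatives, 30 moved by more than the spread between arrays. The causes were not tested. Dim genes such as Slc6a19 and Hs3st3b1 lie close to background, where intensity limits which differences can be seen.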
